A study of Mus musculus with 6 samples.

Results

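Genes for the coat, the lipases and the fatty acid supply of lipid droplets were followed in metastases that 4T1 cells, a triple-negative mammary carcinoma line of the mouse, form in the liver. The 10 genes are Cidec, Cideb, Plin2, Plin4, Plin5, Hsd17b13, Pnpla2, Pnpla3, Cd36 and Fabp4, taken by symbol from the 24167 genes of the deposited count table, and all 10 passed the filter on low counts that left 15567 genes. They were picked around Cidec, Hsd17b13 and Fabp4 with the contrast between the groups known, so their differences are given as a description, without a test. The metastases came from 4T1 cells transduced with a lentiviral short hairpin against Zdhhc17 (shZdhhc17), a palmitoyltransferase gene, and from 4T1 cells with a scrambled hairpin (shSCR), each in 3 libraries. All hosts were female BALB/c mice aged 6 to 8 weeks, and all received 500000 puromycin-selected cells by hydrodynamic injection into the tail vein. On day 10 metastases were dissected under a microscope and polyadenylated RNA was sequenced. The silencing was in the injected cells alone, the host liver and immune cells in the dissected tissue carry no hairpin, and the labels describe drug-selected cells without naming a clone. They do not state that each library is 1 animal, so the spread between libraries may be partly technical.

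Lipid droplets store triglyceride and cholesteryl ester in a core wrapped by a phospholipid monolayer, on which perilipins and CIDE proteins sit. Perilipins hold lipases off the core, CIDE proteins pass lipid from small droplets to larger ones, and lipases release fatty acids for oxidation or for lipoprotein assembly. In the liver, hepatocytes hold most droplets, and many droplet genes respond to fasting and to fatty acids through the nuclear receptor PPAR-alpha. In a whole-tissue sample, fewer cells of a type and less RNA per cell cannot be told apart.

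Promoter windows of RefSeq (GRCm38.p6, 250 bases before to 50 after each start) matched 9 of the 10 genes, in 11 windows. The counts themselves were made on GRCm39, so these coordinates belong to the windows alone. The windows of Cidec, which has a pair of annotated starts, and of Hsd17b13 are shown because these genes stood higher in every shZdhhc17 library than in every shSCR library, and that of Plin2 because it is the most abundant perilipin. Capitals mark AGGTCA, the hexamer that nuclear receptors bind, which reads TGACCT from the other strand, or CACGTG, the E-box.
Cidec, chr6:113435711-113436010, minus strand: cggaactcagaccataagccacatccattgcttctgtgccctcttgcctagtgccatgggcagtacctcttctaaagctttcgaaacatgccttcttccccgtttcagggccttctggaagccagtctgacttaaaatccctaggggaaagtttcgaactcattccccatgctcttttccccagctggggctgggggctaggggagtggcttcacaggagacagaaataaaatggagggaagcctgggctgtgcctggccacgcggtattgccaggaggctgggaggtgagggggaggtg
Cidec, chr6:113434715-113435014, minus strand: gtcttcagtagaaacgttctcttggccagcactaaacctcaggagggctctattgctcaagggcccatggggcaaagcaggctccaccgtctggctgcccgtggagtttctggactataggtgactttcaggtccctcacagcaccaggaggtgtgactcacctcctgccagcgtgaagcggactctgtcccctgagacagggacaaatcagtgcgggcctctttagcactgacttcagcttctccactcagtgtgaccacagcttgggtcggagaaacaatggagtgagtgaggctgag
Hsd17b13, chr5:103977339-103977638, minus strand: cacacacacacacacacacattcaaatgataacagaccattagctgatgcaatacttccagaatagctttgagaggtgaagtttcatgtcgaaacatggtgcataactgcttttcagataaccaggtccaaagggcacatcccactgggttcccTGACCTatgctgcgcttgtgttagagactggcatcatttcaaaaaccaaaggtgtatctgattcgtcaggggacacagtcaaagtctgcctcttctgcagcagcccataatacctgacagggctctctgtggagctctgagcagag
Plin2, chr4:86670010-86670309, minus strand: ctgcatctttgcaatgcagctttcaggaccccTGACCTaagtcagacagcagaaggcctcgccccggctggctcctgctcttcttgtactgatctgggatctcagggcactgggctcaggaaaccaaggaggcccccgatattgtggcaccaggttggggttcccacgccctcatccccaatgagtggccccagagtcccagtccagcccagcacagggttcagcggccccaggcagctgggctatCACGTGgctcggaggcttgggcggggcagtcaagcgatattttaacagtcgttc
AGGTCA stood in 5 of the 11 windows, those of Plin2, Cd36, Hsd17b13 and both of Plin5, and in 16.3% of all 32851 windows of the table. CACGTG stood in the Plin2 window only, against 7.15% of all windows. The hexamer repeated after 1 base (AGGTCA, any base N, AGGTCA), the element of PPAR with its partner RXR, was in 0 of the 11 windows and in 0.04% of all windows. Neither Cidec window held any of the searched motifs, which says only that these letters are not in these stretches.

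Library totals ran from 15832837 to 19186615 counts. Zdhhc17 itself stood at 26.5 ± 1.07 CPM (the usual scaling of counts to library size, here TMM-normalised) in shZdhhc17 and at 33.4 ± 0.902 CPM in shSCR metastases (SD, n = 3 each). On the log2 scale that was a fold change of -0.33 ± 0.11 (SE), with an adjusted p of 0.383 in edgeR's quasi-likelihood test. The libraries were not alike in their summed hepatocyte transcripts. The 14 hepatocyte markers, all detected and 12 of them with a positive log2 fold change, summed to 62343, 83393 and 75672 CPM in shZdhhc17 replicates 1, 2 and 3, against 66688, 52776 and 30125 CPM in the shSCR replicates. The shSCR replicate 3 library was thus the lowest in hepatocyte transcripts, with 3.35% of its counts from these markers, where the other 5 libraries had 5.65% to 7.66%. Mean log2(CPM + 1) of the markers was 10.7, 11.3 and 10.9 in shZdhhc17 and 11.1, 10.8 and 9.88 in shSCR replicates 1, 2 and 3. An exact two-sided permutation test of this level gave p = 0.5. The covariate used below is this mean level, while the ratios to hepatocyte markers use summed counts, and the 2 measures order the libraries differently. The 6 epithelial genes listed as carcinoma markers summed to 1485 to 2824 CPM in shZdhhc17 and to 1786 to 2849 CPM in shSCR metastases. Krt8 and Krt18 held most of each sum, with 1212 and 1089 CPM in shZdhhc17 replicate 1. None of the 6 genes was shown here to be confined to carcinoma cells, so the sums do not measure carcinoma content.

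In brief, Cidec, Hsd17b13 and Fabp4 were the genes whose groups did not overlap: Cidec and Hsd17b13 stood higher and Fabp4 lower in each shZdhhc17 library than in each shSCR library. Among all genes tested, 7.48% were higher and 9.62% lower without overlap, 17.1% in either direction. The log2 fold change was positive for 8 of the 10 genes, against 50.3% of all genes tested. The median was 0.58 over the 10 genes and 0.0017 over all genes. By edgeR's quasi-likelihood test, 0 of the 10 had an adjusted p under 0.05, as did 0% of all genes (0 of 15567, with 1780 at an unadjusted p under 0.05). At an unadjusted p under 0.05, 3 of the 10 were higher and 1 lower, against 4.72% and 6.71% of all genes. limma voom called 0 of the 10 and 0% of all genes. DESeq2 called 2 of the 10, Cidec and Hsd17b13, and 1.22% of the 16658 genes to which it gave an adjusted p. The authors' deposited table, also from DESeq2 on these counts, is not separate evidence. There the same 2 genes had a q under 0.05, with 0.000939 for Cidec and 0.0115 for Hsd17b13. That held for 0.844% of its 24167 genes in either direction and for 0.406% on the higher side. Each DESeq2 fit called 204 genes, so the 2 shares differ through the number of genes counted. Since the genes were chosen on this contrast, these counts support nothing further.

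**Figure D1:**
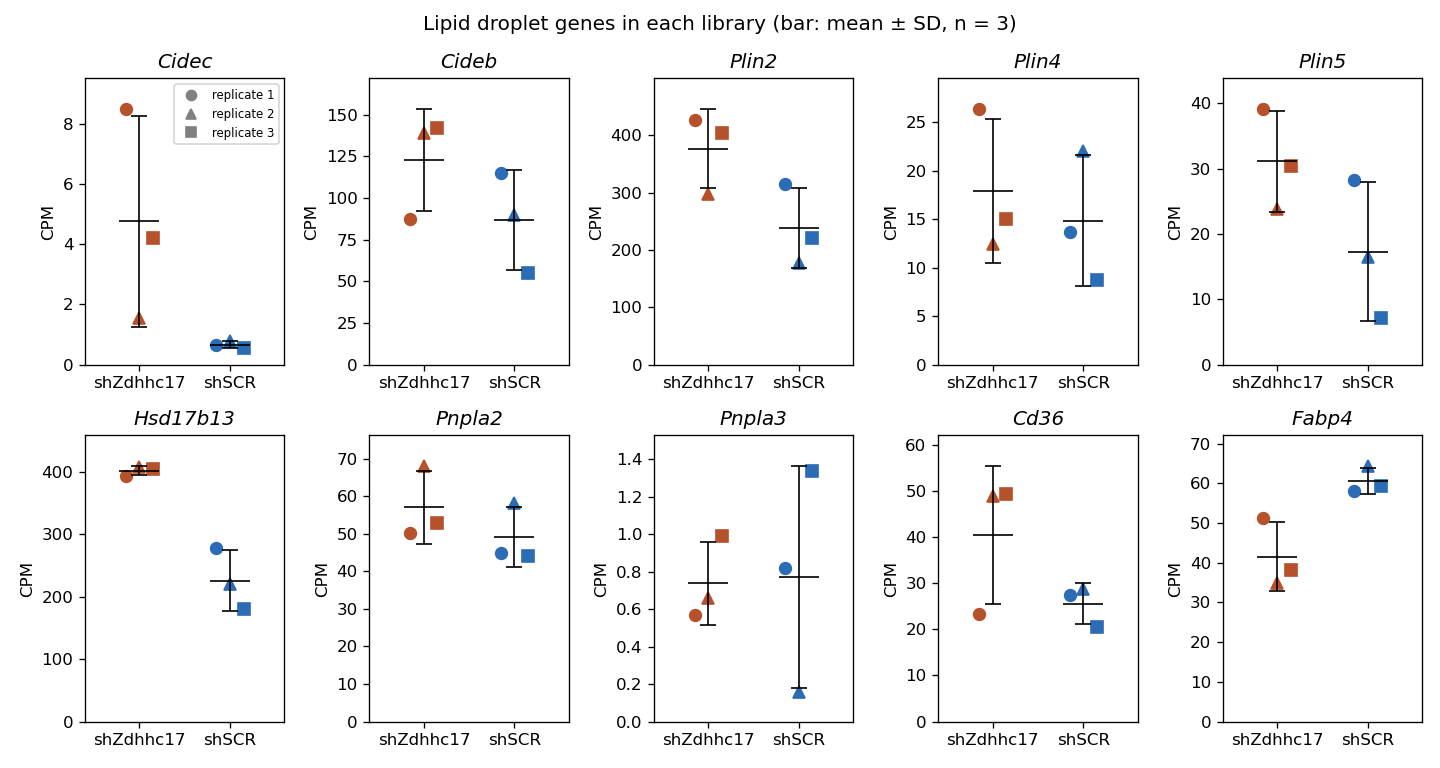
CPM of the 10 genes in each library, shZdhhc17 in red and shSCR in blue, with a symbol for each replicate number and bars for the mean ± SD (n = 3). In the panels of Cidec, Hsd17b13 and Fabp4 the groups do not overlap, and Cidec runs from 1.55 to 8.49 CPM among the shZdhhc17 libraries.

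Per kilobase of exon, Hsd17b13 was the most abundant of the genes, with a mean over the 6 libraries of 145 CPM per kb, above Plin2 (87.4 CPM per kb) in 6 of 6 libraries. Cideb followed at 70.3 CPM per kb and was below Plin2 in 4 of 6 libraries. These genes formed the upper tier, and Cideb stood above Pnpla2 (17.6 CPM per kb) in 6 of 6 libraries. The order of Pnpla2, Plin5 (11.6), Fabp4 (11.4) and Cd36 (9.19 CPM per kb) changed between libraries. Lengths here join the exons of all annotated transcripts of a gene. For Fabp4 they came to 4489 bases, against 553 for the related Fabp1, so the value of Fabp4 per kilobase may be understated. The place of Fabp4 in this order, upper tier included, is therefore not settled. Cd36 stood above Plin4 (2.83 CPM per kb) in 6 of 6 libraries. At the low end, Plin4 was above Cidec (1.46) in 5 of 6 libraries and Cidec above Pnpla3 (0.487 CPM per kb) in 4 of 6.

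CIDE proteins gather at contacts between droplets. Cidec (ENSMUSG00000030278.12), known as FSP27, drives the growth of large droplets in adipocytes and in fatty liver. It had 135, 26 and 64 counts in shZdhhc17 replicates 1, 2 and 3, against 12, 15 and 10 counts in the shSCR replicates, or 8.49, 1.55 and 4.22 CPM against 0.654, 0.784 and 0.558 CPM. The lowest shZdhhc17 library was still above the highest shSCR library, but the 3 shZdhhc17 libraries were far apart. The mean was 4.75 ± 3.50 CPM in shZdhhc17 and 0.666 ± 0.114 CPM in shSCR metastases (SD, n = 3 each), with a log2 fold change of 2.82 ± 0.61 (SE). Without shZdhhc17 replicate 1 the log2 fold change was 2.11. Per 1000 counts of hepatocyte markers Cidec had 0.136, 0.0186 and 0.0558 counts in the shZdhhc17 libraries and 0.00981, 0.0149 and 0.0185 counts in the shSCR libraries, so on that scale shZdhhc17 replicate 2 and shSCR replicate 3 were next to each other.

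Cideb (ENSMUSG00000022219.11), the CIDE gene of hepatocytes, serves the loading of lipid onto very low density lipoprotein. Its level was 87.2, 139 and 142 CPM in shZdhhc17 replicates 1, 2 and 3, compared with 115, 89.7 and 55.0 CPM in the shSCR replicates, and the groups overlapped. The log2 fold change was 0.50 ± 0.30 (SE), and 0.22 ± 0.18 once the level of hepatocyte markers entered the fit. It was 0.26 without shSCR replicate 3 and 0.76 without shSCR replicate 1. Per 1000 hepatocyte marker counts, Cideb had between 1.40 and 1.88 counts in shZdhhc17 and between 1.70 and 1.82 counts in shSCR libraries. In the GENCODE M21 annotation 76.3% of the exon bases of Cideb lie opposite exons of Nop9. The library kit marks strand, but how strand was set in counting is not named in the sources used here, so reads of the pair may not be fully told apart. Nop9 itself ran from 28.1 to 28.8 CPM in shZdhhc17 and from 24.1 to 26.9 CPM in shSCR libraries.

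Perilipins coat the droplet. Plin2 (ENSMUSG00000028494.13), the coat protein of nearly all non-adipose droplets and one that is stable only when bound to lipid, had 427, 298 and 405 CPM in shZdhhc17 replicates 1, 2 and 3, against 314, 177 and 221 CPM in the shSCR replicates. Only shSCR replicate 1 reached into the shZdhhc17 range. The log2 fold change of Plin2 was 0.66 ± 0.25 (SE), and 0.65 ± 0.27 once the level of hepatocyte markers entered the fit. Per 1000 hepatocyte marker counts, Plin2 had 6.85, 3.57 and 5.35 counts in shZdhhc17 and 4.72, 3.36 and 7.35 counts in shSCR replicates 1, 2 and 3. The log2 ratio of the means on that scale was 0.03. Plin5 (ENSMUSG00000011305.12), which ties droplets to mitochondria in tissues that burn fat, had 39.1, 23.8 and 30.5 CPM in shZdhhc17, against 28.3, 16.5 and 7.09 CPM in shSCR replicates 1, 2 and 3. The groups overlapped, with shSCR replicate 1 above shZdhhc17 replicate 2. The log2 fold change of Plin5 was 0.85 ± 0.45 (SE), and 0.67 ± 0.37 once the level of hepatocyte markers entered the fit. It was 0.47 without shSCR replicate 3, the library with the fewest hepatocyte transcripts, and 1.40 without shSCR replicate 1. Per 1000 hepatocyte marker counts, the log2 ratio of the Plin5 means was 0.44. The part of hepatocyte content in the Plin5 difference was not tested. Plin4 (ENSMUSG00000002831.15), a coat protein of adipocyte and muscle droplets, had 26.4, 12.4 and 15.0 CPM in shZdhhc17, against 13.7, 22.1 and 8.71 CPM in shSCR replicates 1, 2 and 3. The groups were interleaved, and its log2 fold change of 0.27 ± 0.39 (SE) turned to -0.12 without shZdhhc17 replicate 1 and was 0.68 without shSCR replicate 2.

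Hsd17b13 (ENSMUSG00000034528.16), a liver droplet protein of the hydroxysteroid dehydrogenase family whose loss of function in people is tied to milder chronic liver disease, was the most even of the genes among silenced libraries. Its level was 394, 407 and 405 CPM in shZdhhc17 replicates 1, 2 and 3, compared with 277, 219 and 180.0 CPM in the shSCR replicates. All 3 shZdhhc17 libraries lay above all 3 shSCR libraries, with a mean of 402 ± 7.20 CPM against 226 ± 49.0 CPM (SD, n = 3 each). The log2 fold change was 0.83 ± 0.19 (SE), a 1.78-fold difference, and 0.70 ± 0.16 once the level of hepatocyte markers entered the fit. Set against hepatocyte transcripts, the separation did not hold: per 1000 marker counts Hsd17b13 had 6.31, 4.88 and 5.35 counts in shZdhhc17 and 4.16, 4.16 and 5.98 counts in shSCR replicates 1, 2 and 3. The hepatocyte and Hsd17b13 levels both were lowest in shSCR replicate 3, and the part of hepatocyte content in the difference was not tested.

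**Figure D2:**
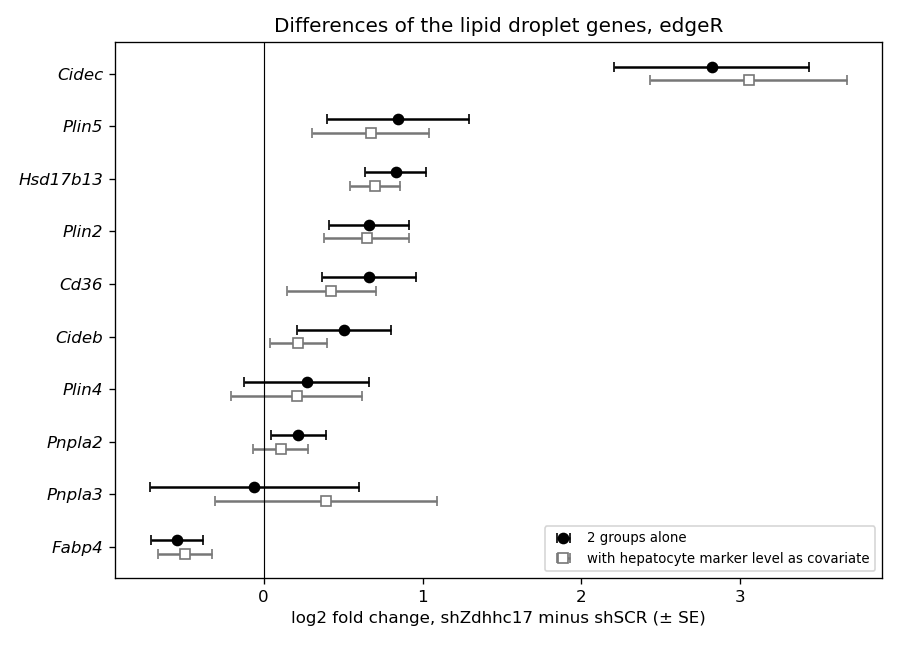
Log2 fold changes of the 10 genes (shZdhhc17 minus shSCR, edgeR, ± SE) from the groups alone, as filled circles, and with the mean hepatocyte marker level of each library as a covariate, as open squares. Cideb stands at 0.50 in the first fit and 0.22 in the second, while Cidec stands at 2.82 and 3.05.

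Of the patatin-like lipases, Pnpla2 (ENSMUSG00000025509.16), which encodes adipose triglyceride lipase and starts the breakdown of stored triglyceride, had 50.3, 68.1 and 52.8 CPM in shZdhhc17 replicates 1, 2 and 3, against 44.9, 58.3 and 44.0 CPM in the shSCR replicates. The groups overlapped through shSCR replicate 2, and the log2 fold change was 0.22 ± 0.17 (SE). It was 0.11 once the level of hepatocyte markers entered the fit, and leaving out single libraries gave between 0.07 (without shZdhhc17 replicate 2) and 0.36 (shSCR replicate 2 left out). Pnpla3 (ENSMUSG00000041653.6), a droplet protein best known for a human variant of fatty liver disease, was barely detected. It had 9, 11 and 15 counts in shZdhhc17, against 15, 3 and 24 counts in shSCR replicates 1, 2 and 3. Its log2 fold change of -0.06 ± 0.66 (SE) is not resolved at this depth, and it was 0.59 without shSCR replicate 3 and -0.55 without shSCR replicate 2.

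Fatty acids enter cells with the help of the scavenger receptor CD36 and travel in the cytosol bound to FABP proteins. Cd36 (ENSMUSG00000002944.16) had 23.3, 48.8 and 49.3 CPM in shZdhhc17 replicates 1, 2 and 3, against 27.4, 28.8 and 20.4 CPM in the shSCR replicates. In shZdhhc17 replicates 2 and 3 it was above every shSCR library, and in shZdhhc17 replicate 1 it was within the shSCR range. The log2 fold change was 0.66 ± 0.30 (SE), and 0.43 ± 0.28 once the level of hepatocyte markers entered the fit. Per 1000 hepatocyte marker counts, Cd36 averaged 0.537 counts in shZdhhc17 and 0.545 counts in shSCR libraries. Fabp4 (ENSMUSG00000062515.4), a carrier of adipocytes, capillary endothelium and macrophages, had 51.4, 34.9 and 38.2 CPM in shZdhhc17 replicates 1, 2 and 3, against 58.0, 64.4 and 59.4 CPM in the shSCR replicates. Every shZdhhc17 library was below every shSCR library, with a mean of 41.5 ± 8.70 CPM against 60.6 ± 3.33 CPM (SD, n = 3 each) and a log2 fold change of -0.55 ± 0.16 (SE).

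Markers of the cells that use these genes were set beside them. Of the 5 adipocyte markers matched, Adipoq ran from 0 to 0.0659 CPM in shZdhhc17 and was at 0 in all 3 shSCR libraries, and Retn ran from 0.0597 to 0.132 CPM in shZdhhc17 and from 0.0545 to 0.112 CPM in shSCR. The list's Plin1, Lep and Cfd found no match and are not analysed here. Cidea, another CIDE gene, ran from 0.396 to 1.38 CPM in shZdhhc17 and from 0.418 to 0.872 CPM in shSCR libraries, and Adrb3 from 0.126 to 0.956 CPM in shZdhhc17 and from 0.164 to 0.335 CPM in shSCR. Cidec in shSCR libraries, at 0.558 to 0.784 CPM, was within the Cidea range there and above Adipoq, Retn and Adrb3. The part of adipocytes in the Cidec difference was not tested. Pck1, which hepatocytes also make, carried nearly all of the adipocyte list's summed 670 to 1662 CPM in shZdhhc17 and 399 to 989 CPM in shSCR libraries. The 8 capillary endothelial markers, of which Rbp7 was near 0, summed to 226 to 301 CPM in shZdhhc17 and to 260 to 280 CPM in shSCR libraries, and 3 of the 7 tested had a positive log2 fold change. The 6 macrophage markers summed to 757 to 901 CPM in shZdhhc17 and to 702 to 904 CPM in shSCR libraries. Liver sinusoidal endothelial markers summed to 169 to 242 CPM in shZdhhc17 and to 121 to 183 CPM in shSCR libraries, with 5 of 5 positive. In all 3 of these lists the sums overlapped between the groups. The part of these cells in the Fabp4 difference was not tested. Single endothelial genes differed in sign, with Pecam1 at -0.43 and Kdr at 0.42 on the log2 scale.

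Markers of further cell types differed between the libraries. The 7 neutrophil markers summed to 518, 346 and 633 CPM in shZdhhc17 and to 138, 287 and 105 CPM in shSCR replicates 1, 2 and 3, with 6 of 7 positive. Mesothelial markers summed to 77.4 to 133 CPM in shZdhhc17 and to 60.2 to 103 CPM in shSCR libraries, with 4 of 5 positive. Mean log2(CPM + 1) over each of these lists was higher in each shZdhhc17 library than in each shSCR library, with p = 0.1 in an exact two-sided permutation test, the smallest that 3 against 3 allows. Adjusted over the 12 marker lists (Benjamini-Hochberg), both exact permutation p-values were 0.45. Kupffer cell markers summed to 264 to 491 CPM in shZdhhc17 and to 99.1 to 329 CPM in shSCR libraries (exact permutation p = 0.2, 5 of 5 positive). On the other side, T cell markers summed to 6.16 to 12.3 CPM in shZdhhc17 and to 7.52 to 33.7 CPM in shSCR libraries, with 0 of 6 positive (exact permutation p = 0.3). Carcinoma markers were positive in 1 of 6 cases (exact permutation p = 0.3). Krt8 and Krt18, which held most of the sum, stood at 0.04 and -0.28 on the log2 scale. Krt19 stood at -0.92, Epcam at -0.77, Cldn7 at -0.40 and Krt7 at -0.17. The part of these cell types in the differences of the droplet genes was not tested.

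Within the shZdhhc17 group the genes did not all follow each other. Cidec, Plin2, Plin4 and Plin5 were highest, over all 6 libraries, in shZdhhc17 replicate 1. Among the shZdhhc17 libraries, these genes and Fabp4 were highest in replicate 1 and lowest in replicate 2. Cideb, Cd36, Hsd17b13, Pnpla2 and Pnpla3 had their lowest shZdhhc17 value in replicate 1. That value stood well apart for Cideb and Cd36 only. Hsd17b13 had 394 CPM there against 407 and 405 CPM, and Pnpla2 50.3 CPM against 52.8 CPM in replicate 3. Pnpla3 had 9 counts against 11 and 15. On the shSCR side, replicate 3 had the lowest value of Cidec, Cideb, Plin4, Plin5, Hsd17b13, Pnpla2 and Cd36 and the highest of Pnpla3.

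**Figure D3:**
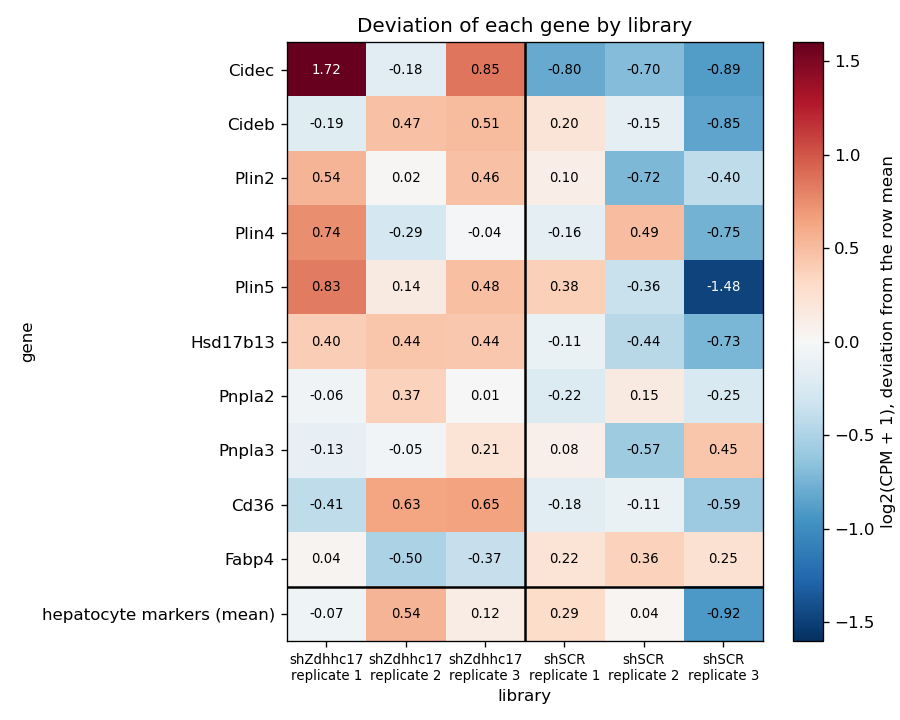
Deviation of each gene in each library from its mean over the 6 libraries, in log2(CPM + 1), with the mean of the hepatocyte markers in the bottom row. In shZdhhc17 replicate 1 Cidec stands at 1.72 and Plin5 at 0.83 while Cd36 stands at -0.41, and in shSCR replicate 3 Plin5 stands at -1.48 and the hepatocyte markers at -0.92.

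The genes closest in pattern to Cidec, Hsd17b13 and Fabp4 were sought over the 6 libraries. By Pearson's r of log2(CPM + 1), Cidec was followed by Ppm1g (0.984), Cstdc4 (0.983) and Supt3 (0.977). Hsd17b13 was followed by Larp4 (0.992), C1galt1c1 (0.991) and Mrc1 (0.990), the mannose receptor of macrophages and sinusoidal endothelium. Fabp4 was followed by Coro6 (0.994), Tardbp (0.989) and Syne4 (0.988). These are the top values among tested genes with a mean of at least 1 CPM, predicted genes left out. They come from only 6 libraries that differ in group and in hepatocyte transcripts, and they are a description. Among the droplet genes themselves, Cidec had r = 0.807 with Plin2 and 0.266 with Cideb, and Fabp4 had r = -0.859 with Cd36.

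Other genes of lipid storage had mostly small positive log2 fold changes, and no gene among them passed the edgeR test. Of 80 other genes on 5 lists for droplet coat and assembly, lipases, lipid synthesis, fatty acid uptake and transcriptional control, 75 were tested, and edgeR called 0 higher and 0 lower. A positive log2 fold change was found for 52 of the 75, with a median of 0.17 against 0.0017 over all genes. At an unadjusted p under 0.05, 11 of the 75 (14.7%) were higher and 5 (6.67%) lower, against 4.72% and 6.71% of all genes, so the lower share was that of all genes. DESeq2 called 1 of them, Fabp7, where it called 1.22% of the genes to which it gave an adjusted p. limma voom called 0, as it did over all genes. The smallest edgeR adjusted p among the genes named from these lists was 0.307.

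**Figure D4:**
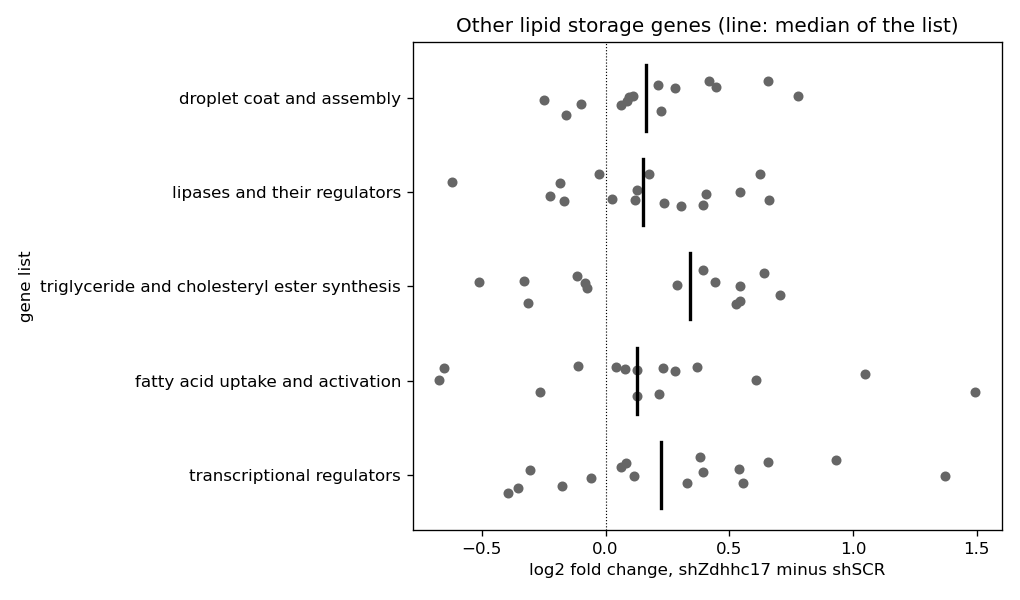
Log2 fold changes (shZdhhc17 minus shSCR, edgeR) of the tested genes on the 5 other lists, a point per gene and a line at the median of each list. Medians lie between 0.13 and 0.34, and each list has genes on both sides of 0.

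Coat and assembly genes were positive in 11 of 14 cases, with a median of 0.16. Mettl7b, a methyltransferase found on hepatocyte droplets, stood at 219 ± 76.2 CPM in shZdhhc17 and 128 ± 30.8 CPM in shSCR metastases (SD, n = 3 each; edgeR adjusted p = 0.409). Fitm2, which helps droplets bud from the endoplasmic reticulum, had a log2 fold change of 0.42 ± 0.19 (SE), and Pcyt1a, which makes phosphatidylcholine for the growing monolayer, 0.45 ± 0.23. Neither passed, and their groups overlapped.

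Lipase genes and their regulators were positive in 11 of 16 cases, with a median of 0.15. Pnpla7, a lysophospholipase gene, stood at 78.4, 98.6 and 117 CPM in shZdhhc17 and at 61.6, 65.8 and 58.5 CPM in shSCR replicates 1, 2 and 3 (edgeR adjusted p = 0.307). Abhd5, the coactivator of adipose triglyceride lipase, had 34.2, 39.4 and 39.6 CPM in shZdhhc17, against 31.6, 33.0 and 26.9 CPM in shSCR replicates 1, 2 and 3 (edgeR adjusted p = 0.447). In both genes the groups did not overlap, though the step was small in Abhd5. The log2 fold change was 0.66 ± 0.16 (SE) for Pnpla7 and 0.30 ± 0.14 for Abhd5. Angptl4, an inhibitor of lipoprotein lipase, had a log2 fold change of 0.62 ± 0.30 (SE). The gene with the highest mean CPM, the hepatic carboxylesterase gene Ces1d, had -0.62 ± 0.47 and ranged from 68.3 to 286 CPM among the shSCR libraries alone.

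Genes of triglyceride and cholesteryl ester synthesis were positive in 8 of 14 cases, with a median of 0.34. Soat2, which esterifies cholesterol, stood at 55.3 ± 16.5 CPM in shZdhhc17 and 33.9 ± 3.93 CPM in shSCR metastases (SD, n = 3 each; edgeR adjusted p = 0.369). Agpat3, an acyltransferase gene with the highest mean CPM of the list, though not per kilobase of exon, had a log2 fold change of 0.53 ± 0.19 (SE), and Gpam, which adds the initial acyl chain to glycerol phosphate, 0.54 ± 0.20. The list's median was 0.12 without shSCR replicate 3, and also 0.12 once the level of hepatocyte markers entered the fit.

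Among fatty acid uptake and activation genes 11 of 15 were positive, with a median of 0.13. Fabp2 and Fabp7 had positive log2 fold changes in every setting run, where Fabp4 was negative. Fabp2, the intestinal form that liver also makes, stood at 34.8, 36.0 and 46.9 CPM in shZdhhc17, against 27.7, 17.4 and 11.7 CPM in shSCR replicates 1, 2 and 3, without overlap (log2 fold change 1.05 ± 0.30, SE; edgeR adjusted p = 0.331). Fabp7, the brain form, had 5.60, 3.82 and 5.47 CPM in shZdhhc17 and 2.07, 1.36 and 1.84 CPM in shSCR libraries, again without overlap (edgeR adjusted p = 0.307). Fabp1, the main liver form, had 400.0, 580 and 667 CPM in shZdhhc17, against 825, 304 and 273 CPM in shSCR replicates 1, 2 and 3, so that the shSCR libraries lay on both sides of the shZdhhc17 range. Slc27a1, a fatty acid transport protein gene of muscle and fat, had a negative log2 fold change and averaged 40.6 ± 3.96 CPM in shZdhhc17, against 63.9 ± 11.7 CPM in shSCR metastases (SD, n = 3 each; edgeR adjusted p = 0.307), and its groups did not overlap.

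Regulators that act on droplet genes were mixed, with 11 of 16 positive and a median of 0.22. Creb3l3, a membrane-bound factor of the liver that in mice induces Cidec, stood at 128, 214 and 209 CPM in shZdhhc17, against 130, 101 and 57.7 CPM in shSCR replicates 1, 2 and 3 (edgeR adjusted p = 0.386). Its lowest shZdhhc17 value fell in replicate 1, where Cidec was highest, and the part of Creb3l3 in the Cidec difference was not tested. Ppara, named after its values were seen because it encodes PPAR-alpha, averaged 38.8 ± 21.8 CPM in shZdhhc17 and 15.0 ± 6.98 CPM in shSCR metastases (SD, n = 3 each; log2 fold change 1.37 ± 0.54, SE; edgeR adjusted p = 0.412). In shZdhhc17 replicate 1 it had 14.3 CPM, within the shSCR range. Rxra, the partner of PPARs, with the highest mean CPM of the list, though not per kilobase of exon, had a log2 fold change of 0.66 ± 0.26 (SE). Nr1h2, which encodes the sterol receptor LXR-beta, and Ppard, which encodes PPAR-delta, were below every shSCR library in each shZdhhc17 library, with log2 fold changes of -0.35 ± 0.12 and -0.39 ± 0.14 (SE), and neither passed.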

How the data were processed

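Polyadenylated RNA of dissected liver metastases was sequenced from 6 libraries, 3 per group, with a strand-marking kit, per the labels' protocols. The build GRCm39 and the tools HTSeq, STAR 2.6.1, DESeq2 1.34.0 and FastQC 0.11.8 are named, without roles, per the submitters' processing notes; symbols follow GENCODE M30 per the file headers. The authors deposited raw counts per gene, and a DESeq2 table of log2 fold changes, p-values, adjusted q-values and their own ranking score. The score was not used here.

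The counts were tested with edgeR 4.0.16 (glmQLFit with robust estimation, glmQLFTest, two-sided, TMM, filterByExpr; R 4.3.3), with Benjamini-Hochberg adjustment over all 15567 genes and a threshold of 0.05. The test was checked on simulated counts. CPM uses TMM library sizes. Standard errors come from the fold change and its F statistic. Levels per kilobase use the joined exons of all transcripts of a gene in GENCODE M21 (GRCm38), another release than the counts. Alternatives were DESeq2 1.42.0, limma 3.58.1 voom, other scalings and filters, a replicate block, a hepatocyte covariate and leaving out each library.

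The 10 genes and all lists were chosen with earlier results of these data known. Members were all named, and other genes by smallest p (3 per list), highest mean CPM or likeness of pattern. Zdhhc17, Nop9, Ppara and several marker genes, among them Pecam1, Kdr, Krt19 and Epcam, were named outside these rules. Symbols were matched as the count table spells them, and 79 of the 80 other genes were found. Total counts of 15832837 to 19186615 set the precision, and for genes of few counts, such as Pnpla3, counting noise alone is large.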

Additional observations from a re-analysis of the deposited data

How the results depend on the processing

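Over all genes edgeR called 0, and so did DESeq2 size factors, library totals, the filter of at least 10 counts in 3 libraries, voom, the replicate block and the hepatocyte covariate; without a filter it called 3, DESeq2 called 204, and leaving out a library gave 0 to 1 (1 without shSCR replicate 3). Of the 10 droplet genes DESeq2 called 2 and of the other lists 1; every other setting called 0 of both, leave-one-out fits included. Same-numbered libraries deviated from their group means with correlations of -0.0591, 0.315 and -0.0458, which shows no consistent pairing by number; the replicate block called 0 genes and left 1623 at an unadjusted p under 0.05, against 1780. The synthesis list's median was 0.12 with the hepatocyte covariate, and 0.12 to 0.42 without single libraries. Without single libraries the uptake median ran from -0.037 to 0.37 and the regulators' from -0.025 to 0.42. The coat list's ran from 0.096 to 0.26 and the lipases' from 0.076 to 0.33. Over all alternative settings the coat list's median fell as low as 0.035 and the lipases' as low as 0.019. The synthesis list's rose to 0.43 there, and the uptake and regulator ranges were unchanged. Library totals alone moved the median of all genes to -0.13, and Fabp4 stood at -0.67 and Hsd17b13 at 0.72 there. Without single libraries the log2 fold change ran from 2.11 to 3.24 for Cidec, 0.69 to 1.01 for Hsd17b13 and -0.72 to -0.43 for Fabp4. Pnpla3 was 0.34 by voom and 0.39 with the covariate, against -0.06; the cause was not tested. The capillary endothelial level differed by -0.13 with library totals, against -0.017. Of 10 genes, the sign changed in some setting for Pnpla3 and Plin4. Without Alb, the ratios to hepatocyte markers gave 2.24 for Cidec and 0.16 for Hsd17b13 on the log2 scale, against 2.29 and 0.21.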
